A study of Homo sapiens with 6 samples.

Results

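The ID genes and the feedback genes of the bone morphogenetic protein (BMP) pathway were followed in SH-SY5Y, an established human cell line grown from a neuroblastoma, whose cells are of the adrenergic type and resemble young neurons. The set has 10 genes, chosen by symbol: ID1, ID2, ID3 and ID4, the SMAD genes SMAD6, SMAD7 and SMAD9, the pseudoreceptor gene BAMBI, and the co-receptor genes RGMA and RGMB. All 10 were found among the 28862 genes of the deposited count table, and all 10 were among the 15829 genes kept for testing after genes with few reads were set aside. The series compares 3 libraries of cells that received a control plasmid with 3 whose label is SMN1 overexpression. The latter are named the SMN1-labelled libraries below. The labels do not name the plasmids or give a time after treatment. They also do not say whether the 3 libraries of a group are separate cultures. The tests therefore see only the spread among these libraries, and that may be technical.

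BMP ligands bind pairs of type I and type II receptors, which phosphorylate the receptor-regulated SMADs (SMAD1, SMAD5 and SMAD9), and these enter the nucleus with SMAD4. The ID genes are classic targets of that complex, and so are SMAD6, SMAD7 and BAMBI, whose products damp the pathway in turn. ID proteins have a helix-loop-helix domain without a DNA-binding basic region: they pair with E proteins and keep them, and the proneural factors that need E proteins as partners, off DNA. In the sympathetic lineage from which neuroblastoma arises, BMPs are known to start the noradrenergic programme.

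Libraries held 30379242 to 40275498 reads assigned to genes. Levels are given as CPM (counts scaled to a common library size with TMM factors) or, where genes are compared with each other, as the authors' FPKM (fragments per kilobase of transcript, scaled by depth), each as mean ± SD over n = 3 libraries. SMN1 reads went against the label, at 20.02 ± 0.432 CPM in the control group and 16.0 ± 1.08 CPM in the SMN1-labelled group (change on the log2 scale -0.32, SE 0.06, adjusted p from edgeR 9.4e-05), so every direction below is between libraries as labelled. SMN2 reads were lower as well, at 9.405 ± 0.358 CPM in the control and 7.63 ± 0.427 CPM in the SMN1-labelled group (log2 fold change -0.30, edgeR adjusted p = 0.0031). SMN1 and SMN2 are near-identical in sequence, and how reads that match both were assigned is not given. These values may therefore not be separate observations. Of 13 markers of adrenergic neuroblastoma 11 stood at 1 FPKM or more, DBH among them, while TH was at 0.05 and 0.00667 FPKM in the groups. Of the 12 adrenergic markers tested 7 were lower and 4 higher in the SMN1-labelled libraries, although the summed level of all 13 was higher (7439 to 7773 and 9600 to 9913 FPKM). Most of that sum, and of its rise, was CHGA (4207 and 4960 FPKM) and CHGB (1595 and 2924 FPKM). The summed level of 9 mesenchymal-type genes ranged from 43.1 to 45.7 FPKM in the control and from 25.9 to 26.7 FPKM in the SMN1-labelled libraries, and 6 of the 9 fell while 1 rose, where 28.2% of all genes tested were lower and 28.0% higher. Most of that sum was VIM, at 33.3 and 17.4 FPKM, whereas PRRX1 and YAP1 were at 0.307 and 0.103 FPKM in the control group. The sum of 6 fibroblast markers was 14.6 to 15.8 and 8.66 to 9.16 FPKM, with COL3A1 and COL1A1 lower and PDGFRB and LUM not passing among the 4 tested. That of 5 epithelial markers was 6.24 to 6.39 and 2.79 to 2.99 FPKM, with 3 of 4 tested lower. Schwann cell markers summed to at most 2.22 FPKM with SOX10 and FOXD3 not in the table used here, and endothelial markers to at most 0.03 FPKM. In bulk RNA, fewer cells of a type and less RNA per cell cannot be told apart, and the part of this shift in the results below was not tested.

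Most of the set was lower in the SMN1-labelled libraries. Of the 10 genes 6 fell (ID1, ID2, ID3, ID4, SMAD6 and BAMBI), 1 rose (RGMB) and 3 did not pass (SMAD7, SMAD9 and RGMA), at an edgeR adjusted p of at most 0.05. Over all genes tested 28.2% were lower and 28.0% higher by the same rule. With a fold of at least 1.5 as a further condition, 5 of the 10 were lower and 1 higher, against 7.76% and 4.31% of all genes tested. The median log2 fold change was -0.59 over the 10 genes and 0.00087 over all genes tested.

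In the 7 genes that passed, no library of one group reached the range of the other, 6 with the SMN1-labelled libraries lower and 1 with them higher. Over all genes tested the groups stood apart in this way in 30.2% downward and 30.4% upward.

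**Figure D1:**
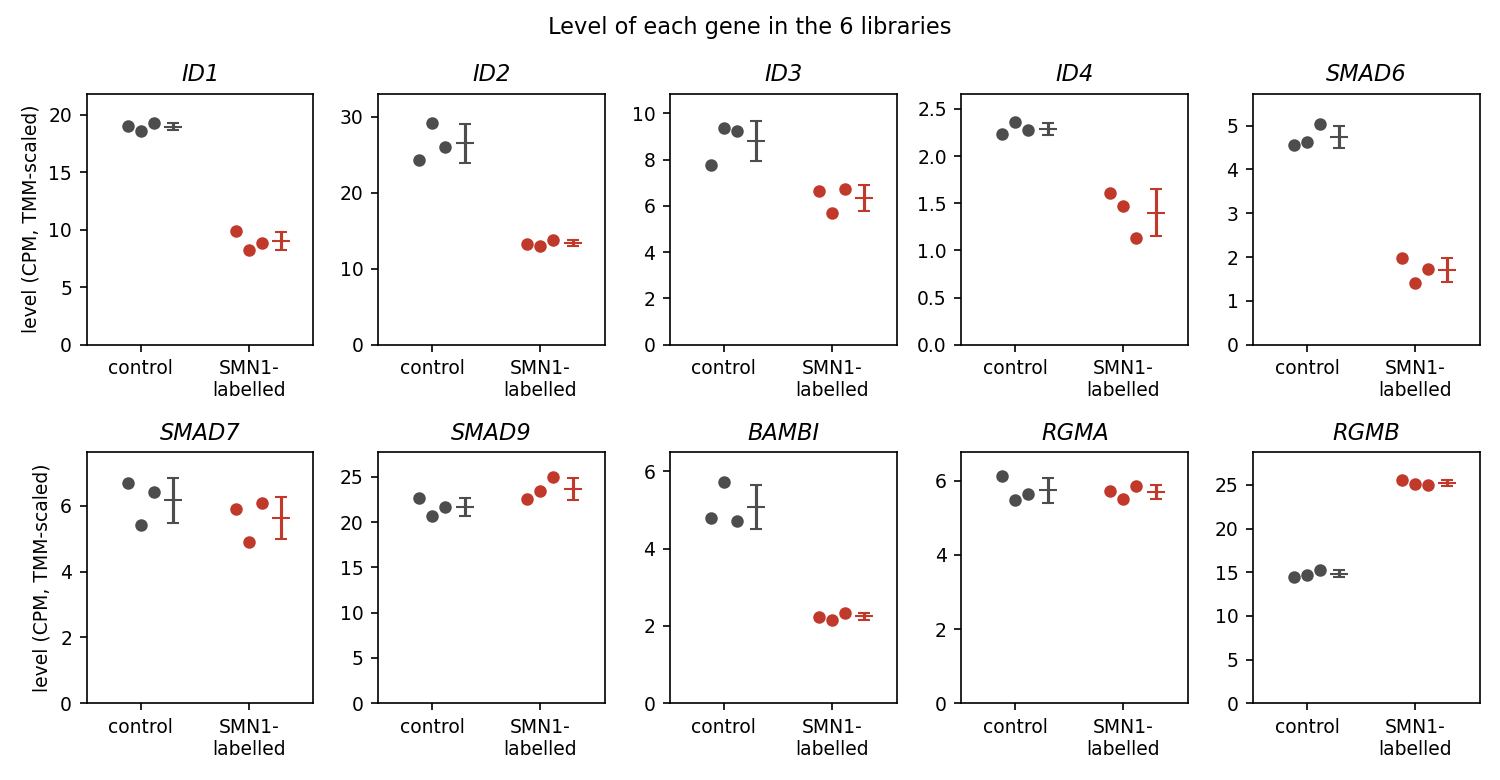
Level of each of the 10 genes in CPM (vertical axis, TMM-scaled, from 0) in the control and SMN1-labelled libraries. Points are libraries, and the bars beside them show the mean and SD of 3. In ID1, ID2, ID3, ID4, SMAD6 and BAMBI every SMN1-labelled library lies below every control library, in RGMB every one lies above, and in SMAD7, SMAD9 and RGMA the groups overlap.

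ID1 and ID2 had the highest levels per length of the set, and their falls were close in size. ID1 stood at 19.0, 18.6 and 19.3 CPM in the control libraries, against 9.85, 8.27 and 8.85 CPM in the SMN1-labelled group. The groups were far apart, with a gap wider than the spread within either. ID1 thus fell 2.12-fold (log2 fold change -1.08, SE 0.07, edgeR adjusted p = 7.86e-12). ID2, which is also an antagonist of proneural differentiation in neural progenitors, stood at 24.3, 29.2 and 26.0 CPM in the control and at 13.3, 13.0 and 13.8 CPM in the other group. The control libraries were the more spread, the second being the highest, and none came near the SMN1-labelled ones. The fall was 1.99-fold (log2 fold change -0.99, SE 0.07, edgeR adjusted p = 1.04e-11).

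ID3 and ID4 fell by less and rested on fewer reads. ID3 was at 7.79, 9.37 and 9.24 CPM across the control libraries and at 6.63, 5.67 and 6.72 CPM in the SMN1-labelled libraries. The first control library and the third SMN1-labelled library were the nearest to each other, and the groups did not overlap. ID3 fell 1.39-fold (log2 fold change -0.48, SE 0.10, edgeR adjusted p = 0.000163). ID2-AS1 shares 38 exonic bases with ID2 on the opposite strand and did not pass, at 6.50 ± 0.469 and 6.04 ± 0.635 CPM (edgeR adjusted p = 0.39). ID4, the family member best known from neural progenitors and glia, had only 66 to 72 reads a library in the control and 37 to 61 in the SMN1-labelled group, or 2.29 ± 0.0650 and 1.40 ± 0.250 CPM. The third SMN1-labelled library was the lowest. ID4 fell 1.62-fold (log2 fold change -0.70, SE 0.17, edgeR adjusted p = 0.0013).

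Short, GC-rich genes as a class had lower counts in the SMN1-labelled group (Spearman's rho of the log2 fold change across genes, which are not independent replicates, 0.34 with length and -0.43 with GC content), and the ID genes are short. The joined exons of ID1 measure 1233 nt, a length at the 8.4th percentile of the genes tested, and those of ID4, the longest of the 4, measure 2344 nt (20.4th percentile). The GC content of the longest transcript was 58.6% for ID1, 53.3% for ID2, 57.2% for ID3 and 47.0% for ID4. With the trends of level with length and GC content removed within each library, the log2 fold changes were -0.75 for ID1, -0.79 for ID2 and -0.65 for ID4 (adjusted p from edgeR 3.97e-09, 1.50e-09 and 0.00322). For ID3 the value became -0.20, which did not pass (edgeR adjusted p = 0.0892). Under that setting 5 of the 10 genes were lower and 1 higher. Of all 15660 genes 3938 were lower and 3563 higher there, or 47.9% called in either direction.

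The 4 ID genes lie on different chromosomes (GRCh38, GENCODE v29): ID1 on the plus strand of chromosome 20 at 31605283 to 31606515, ID2 on the plus strand of chromosome 2 at 8678845 to 8684453, ID3 on the minus strand of chromosome 1 at 23557918 to 23559794, and ID4 on the plus strand of chromosome 6 at 19837386 to 19840684. Because these genes fell together, the 250 bases before each RefSeq start (GRCh38.p14) are shown, 5′ to 3′ on the gene's strand, with that of BAMBI, which fell as well. The window of SMAD6, which also fell, is not printed and is described below with the others. Capitals mark matches, on either strand, to the letters TATAAA (the TATA box), TGACG (the short site of CREB-type factors) or GGCGCC (the GC-rich site of SMAD1 and SMAD5). Overlapping matches are joined. The RefSeq starts of ID1, ID2, ID3 and BAMBI lie inside the spans that GENCODE gives these genes, so those windows are not all upstream of the annotated gene.
ID1, chr20:31605039-31605288: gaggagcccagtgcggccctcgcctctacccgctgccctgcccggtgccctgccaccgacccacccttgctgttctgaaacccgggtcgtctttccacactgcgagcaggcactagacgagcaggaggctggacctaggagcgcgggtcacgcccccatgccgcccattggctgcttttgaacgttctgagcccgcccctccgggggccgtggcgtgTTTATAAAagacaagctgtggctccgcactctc
ID2, chr2:8681806-8682055: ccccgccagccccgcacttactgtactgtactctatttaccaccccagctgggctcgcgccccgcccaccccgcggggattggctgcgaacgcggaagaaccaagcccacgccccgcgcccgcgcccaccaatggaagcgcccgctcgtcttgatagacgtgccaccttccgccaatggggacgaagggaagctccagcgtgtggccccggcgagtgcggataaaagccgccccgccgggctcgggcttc
ID3, chr1:23559502-23559751: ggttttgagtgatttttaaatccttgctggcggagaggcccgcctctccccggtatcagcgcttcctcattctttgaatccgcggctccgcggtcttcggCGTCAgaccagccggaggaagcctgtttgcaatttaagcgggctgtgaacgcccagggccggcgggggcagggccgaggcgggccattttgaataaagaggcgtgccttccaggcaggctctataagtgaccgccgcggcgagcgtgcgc
ID4, chr6:19837120-19837369: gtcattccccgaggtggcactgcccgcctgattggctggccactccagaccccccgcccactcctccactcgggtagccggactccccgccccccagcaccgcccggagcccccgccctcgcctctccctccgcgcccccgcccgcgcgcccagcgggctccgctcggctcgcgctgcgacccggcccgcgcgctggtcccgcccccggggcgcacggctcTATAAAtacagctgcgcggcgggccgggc
BAMBI, chr10:28677271-28677520: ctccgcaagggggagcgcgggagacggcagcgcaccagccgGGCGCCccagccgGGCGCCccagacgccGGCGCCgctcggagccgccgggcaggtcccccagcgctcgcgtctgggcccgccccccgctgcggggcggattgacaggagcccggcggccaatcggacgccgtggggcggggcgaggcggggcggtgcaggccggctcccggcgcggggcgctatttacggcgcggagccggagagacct

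ID1 and ID4 had a TATA box match close to the start, from 31 to 26 and from 29 to 24 bases before it on the gene's strand, and in ID1 a second match on the other strand overlapped it. TATAAA occurred in 10.7% of all 35116 promoter windows of the same length. ID3 had 1 match to TGACG (21.2% of all windows), and BAMBI had 3 to GGCGCC, the first and last beginning 209 and 181 bases before the start (16.4% of all windows). Genes of the set that did not fall had matches as well: RGMA had GGCGCC in 1 of its 5 windows, SMAD7 had TATAAA in 1 of 3, and RGMB, which rose, had TGACG in 1 of 3. In the windows of ID2 and SMAD6, which fell, and of SMAD9 none of these letters were found. No window of the 10 genes, some of which have several, matched CAGACA, a SMAD-binding element (13.6% of all windows), or GGCGCCNNNNNGTCT, the spaced BMP response element (0.0769%). These are matches of letters in a short window and say nothing of sites further upstream. The windows of the ID genes were 62.0 to 78.8% G and C, where the median of all windows was 58.0%. That of BAMBI was 81.2% and the RGMA window with GGCGCC 86.4%, while the share of 16.4% is over windows of any G and C content.

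Relative to each other and to length, the ID genes changed in proportion as well as in sum. The summed FPKM of the 4 genes was 29.6, 32.4 and 30.8 across the control libraries and 18.2, 16.3 and 17.8 across the SMN1-labelled libraries. ID1 made up 45.5% ± 2.52 of that sum in the control group and 40.6% ± 1.58 in the SMN1-labelled group. Its shares did not overlap between the groups, though the nearest libraries were at 42.9 and 42.4%. ID2 made up 35.4% ± 1.93 and 33.7% ± 1.66. ID3 took 16.2, 17.8 and 18.1% of the sum across the control libraries and 23.5, 22.7 and 24.7% across the SMN1-labelled group, without overlap. ID4 stayed a small part, at 1.75% ± 0.0377 and 2.02% ± 0.382. An exact permutation test of 3 libraries against 3 cannot go below p = 0.1, and none was run on these shares.

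The E protein genes, whose products are the partners of ID proteins, did not fall. TCF4 was at 72.4, 76.4 and 74.0 CPM in the control and at 115, 121 and 116 CPM in the SMN1-labelled libraries, which is 1.58-fold more (edgeR adjusted p = 7.01e-13). TCF12 rose 1.52-fold, from 48.8 ± 2.90 to 74.3 ± 3.25 CPM (edgeR adjusted p = 8.45e-11). TCF3, which encodes E12 and E47 and was the most abundant of the 3 per length, stood at 279 ± 7.24 and 279 ± 11.5 CPM, a difference of 0.00044 on the log2 scale (95% interval -0.07 to 0.08) that did not pass (edgeR adjusted p = 0.994). TCF4 and TCF12 have long, GC-poor transcripts, and with the length and GC trends removed their log2 fold changes were 0.42 and 0.33 (edgeR adjusted p = 9.62e-10 and 7.44e-07) and that of TCF3 was 0.10, which passed (edgeR adjusted p = 0.0104). Summed over the 3 E protein genes, the level was 48.9 ± 1.53 FPKM in the control group and 56.1 ± 1.22 FPKM in the SMN1-labelled libraries. TCF3 entered that sum at 41.9 and 44.5 FPKM although its CPM did not differ, so the size of the rise depends on the scale. The ratio of summed ID to summed E protein FPKM was 0.600, 0.645 and 0.652 across the control libraries and 0.317, 0.295 and 0.320 across the SMN1-labelled libraries. It was not computed with the length and GC trends removed. Under that setting the falls of the ID genes and the rises of TCF4 and TCF12 were smaller, while the value of TCF3 was larger.

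**Figure D2:**
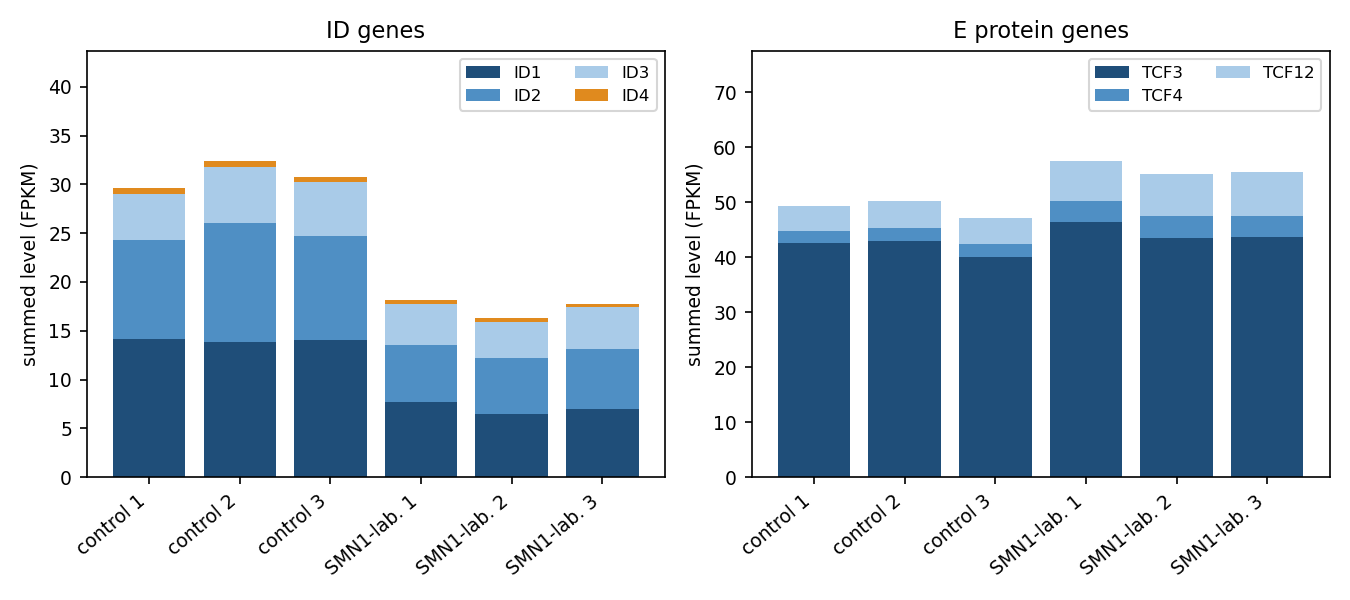
Summed level in FPKM (vertical axes, from 0) of the 4 ID genes (left) and the 3 E protein genes (right) in each of the 6 libraries, stacked by gene. The ID sum is 29.6 to 32.4 in the control and 16.3 to 18.2 in the SMN1-labelled libraries, and the E protein sum is 47.2 to 50.2 and 55.2 to 57.5.

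Of the feedback inhibitors SMAD6 and BAMBI fell and SMAD7 did not pass. SMAD6, an inhibitory SMAD that acts chiefly on the BMP branch, had the largest fall of the set. It stood at 4.56, 4.62 and 5.03 CPM across the control libraries and at 1.97, 1.42 and 1.73 CPM in the SMN1-labelled libraries, from 137 to 146 reads and from 57 to 66 reads. The groups were wide apart, with the second SMN1-labelled library the lowest. The fall was 2.80-fold (-1.48 on the log2 scale, SE 0.14, edgeR adjusted p = 3.48e-09), and its log2 fold change was at the 0.613th percentile of all genes tested. SMAD6 lies on the plus strand of chromosome 15 at 66702228 to 66782848. Its joined exons are 8563 nt long, at the 83.8th percentile, so it is not among the short genes, and with the length and GC trends removed the value was -1.42 (edgeR adjusted p = 1.76e-08).

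BAMBI encodes a membrane protein like a type I receptor without the kinase domain, which blocks BMP, activin and TGF-beta receptors. Its level was 4.79, 5.73 and 4.72 CPM in the control and 2.24, 2.16 and 2.34 CPM in the SMN1-labelled libraries. The SMN1-labelled libraries were close to each other, and the second control library was the highest. BAMBI fell 2.27-fold (-1.18 on the log2 scale, SE 0.13, edgeR adjusted p = 3e-08), and -1.04 on the log2 scale was left with the length and GC trends removed (edgeR adjusted p = 5.30e-07). It lies on the plus strand of chromosome 10 at 28677342 to 28682939.

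SMAD7, the inhibitory SMAD that TGF-beta and activin signals induce as well as BMPs, was at 6.69, 5.41 and 6.41 CPM across the control libraries and at 5.91, 4.90 and 6.08 CPM in the SMN1-labelled libraries. The groups overlapped, and the second library was the lowest in each. The log2 fold change was -0.14 (95% interval -0.36 to 0.08, edgeR adjusted p = 0.286). A fall of the size seen in SMAD6 lies outside that interval. SMAD7 lies on the minus strand of chromosome 18 at 48919853 to 48952052. Per length, SMAD7 was 2.82 ± 0.337 times as abundant as SMAD6 in the control and 7.23 ± 0.557 times in the SMN1-labelled libraries (ratio of FPKM), with no overlap between the groups.

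SMAD9, a receptor-regulated SMAD of the BMP branch that is itself a BMP target, stood at 22.7, 20.7 and 21.7 CPM in the control and at 22.6, 23.4 and 25 CPM in the SMN1-labelled libraries. The first control library lay within the range of the SMN1-labelled group. On the log2 scale the difference was 0.13, its 95% interval ran from 0.0098 to 0.24, and it did not pass after adjustment (edgeR adjusted p = 0.0602). The call and the sign depended on the setting: SMAD9 passed without the first control library (log2 fold change 0.16, edgeR adjusted p = 0.0432) or without the first SMN1-labelled library (0.16, adjusted p = 0.0285), and the value was -0.09 with the length and GC trends removed (edgeR adjusted p = 0.172). SMAD9 lies on the minus strand of chromosome 13 at 36844831 to 36920765. The other receptor-regulated SMADs rose: SMAD1 1.52-fold from 2.88 ± 0.294 to 4.33 ± 0.723 CPM (edgeR adjusted p = 0.000618) and SMAD5 1.44-fold from 6.98 ± 0.812 to 10.01 ± 0.982 CPM (edgeR adjusted p = 4.91e-05). With the trends removed their log2 fold changes were 0.33 and 0.24 (edgeR adjusted p = 0.0469 and 0.0338). SMAD9 made up 75.9% ± 0.570 of the summed FPKM of these 3 genes in the control group and 70.3% ± 2.54 in the SMN1-labelled group.

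The co-receptor genes RGMA and RGMB went different ways. They encode membrane-anchored repulsive guidance molecules that bind BMP ligands and the receptor neogenin. RGMB was at 14.5, 14.7 and 15.3 CPM in the control and at 25.6, 25.1 and 24.9 CPM in the SMN1-labelled libraries. Spread within each group was small and the groups were wide apart. RGMB rose 1.70-fold (log2 fold change 0.77, SE 0.06, edgeR adjusted p = 4.65e-11), a value at the 98.0th percentile of all genes tested, and 0.64 was left with the length and GC trends removed (edgeR adjusted p = 1.37e-09). RGMB lies on the plus strand of chromosome 5 at 98768650 to 98798643. Antisense genes overlap it on the other strand, but RGMB-AS1 had 0 to 4 reads a library and the other, CTC-463N11.4, 0 to 3, against 435 to 1044 for RGMB.

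RGMA had 6.13, 5.47 and 5.65 CPM across the control libraries and 5.73, 5.50 and 5.87 CPM across the SMN1-labelled libraries. All SMN1-labelled values lay within the control range. The log2 fold change was -0.01 (95% interval -0.21 to 0.19, edgeR adjusted p = 0.913). It lies on the minus strand of chromosome 15 at 93035273 to 93089204. Per length RGMB was 5.12 ± 0.391 times as abundant as RGMA in the control and 8.86 ± 0.320 times in the SMN1-labelled libraries. NEO1, the gene of the receptor neogenin, was at 52.2 ± 1.24 and 55.4 ± 2.997 CPM and did not pass (log2 fold change 0.09, 95% interval -0.0039 to 0.18, edgeR adjusted p = 0.0964). ENG, which encodes the co-receptor endoglin, fell 1.95-fold from 17.5 ± 0.209 to 9.02 ± 0.393 CPM (edgeR adjusted p = 2.47e-11).

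**Figure D3:**
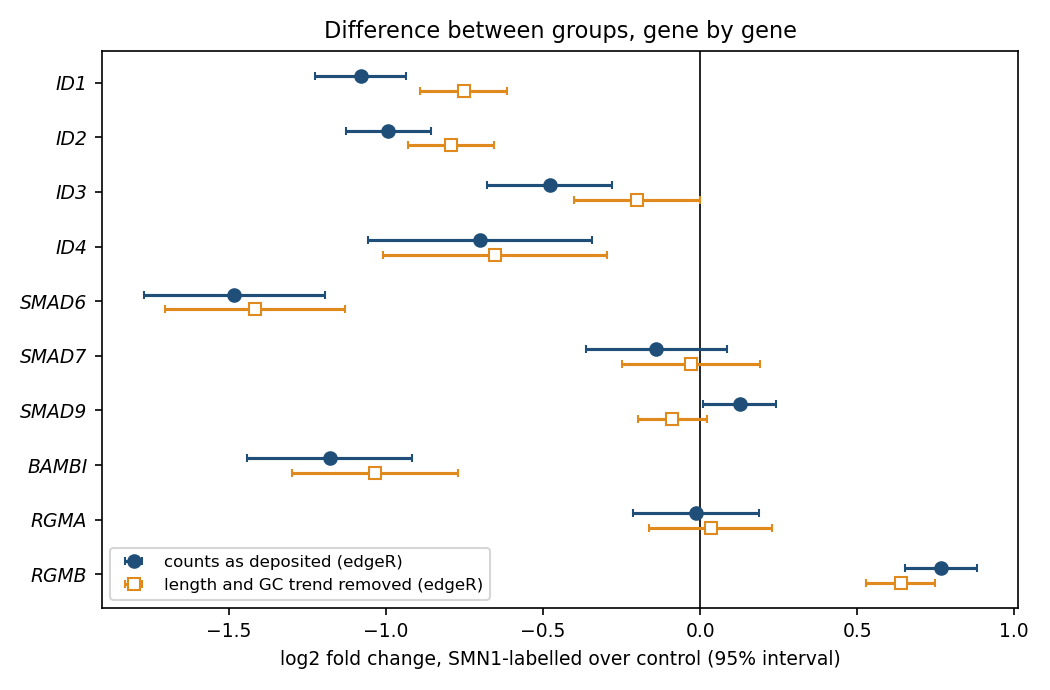
Log2 fold change of each of the 10 genes, SMN1-labelled over control, with its 95% interval, from the counts as deposited (filled circles) and with the trends in gene length and GC content removed (open squares). ID1 moves from -1.08 to -0.75 and ID3 from -0.48 to -0.20, SMAD6 moves from -1.48 to -1.42, and the interval of SMAD7 and RGMA includes 0 in both.

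In the order of levels per length, ID1 came first in both groups with 14.1 ± 0.154 FPKM in the control group and 7.08 ± 0.603 FPKM in the SMN1-labelled libraries, followed by ID2 (10.9 ± 1.08 and 5.86 ± 0.199 FPKM) and ID3 (5.37 ± 0.514 and 4.12 ± 0.376 FPKM). In the control group these 3 and SMAD9 (3.40 ± 0.161 FPKM) were each apart from the next by more than their summed SDs. BAMBI (2.17 ± 0.259 FPKM) and RGMB (2.04 ± 0.0351 FPKM) were not apart there, nor were ID4 (0.540 ± 0.0173 FPKM) and SMAD6 (0.507 ± 0.0208 FPKM), and RGMA came last at 0.400 ± 0.0265 FPKM. In the SMN1-labelled group RGMB (3.69 ± 0.0289 FPKM) was above SMAD7 (1.39 ± 0.159 FPKM) and BAMBI (1.02 ± 0.0458 FPKM), and SMAD6 was last at 0.193 ± 0.0306 FPKM. There ID3 and SMAD9 (3.94 ± 0.223 FPKM) were not apart by their summed SDs, nor were RGMA (0.417 ± 0.0153 FPKM) and ID4 (0.350 ± 0.0625 FPKM).

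The rest of the pathway, together with the E protein genes above, was described by lists of genes in each role. Of the 65 tested genes beside the 10, 23 rose and 18 fell. Their median was 0.12 on the log2 scale. This share is near that over all genes tested, where 56.2% were called. Among 8 ligand genes tested BMP7 rose 1.25-fold, from 21.4 ± 0.390 to 26.7 ± 0.638 CPM (edgeR adjusted p = 1.03e-05), and GDF11, which signals through the activin branch, rose 1.18-fold from 112 ± 2.22 to 132 ± 4.78 CPM, a log2 fold change of 0.24 that was 0.11 with the length and GC trends removed (edgeR adjusted p = 0.0121). GDF10, named after its value was seen, fell from 0.854 ± 0.348 to 0.261 ± 0.0373 CPM (edgeR adjusted p = 0.000175). The other 5 did not pass. With the length and GC trends removed 4 of the 8 were higher and 1 lower, where 3563 of all 15660 genes were higher and 3938 lower. GDF15 (log2 fold change 0.46) and BMP8B (0.23) were called only under that setting (edgeR adjusted p = 0.00193 and 0.0156). BMP2 stood at 0.211 and 0.179 CPM, and BMP4 and BMP6 were under 0.03 CPM in both groups, all too low to be tested.

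Receptor genes rose, apart from 1. Of 7 tested 6 were higher and 1 lower in the SMN1-labelled libraries, with a median log2 fold change of 0.48, against 28.0% higher and 28.2% lower over all genes tested. ACVR2B, a type II receptor for activins and BMPs, rose 1.57-fold from 19.1 ± 2.29 to 29.99 ± 1.84 CPM (edgeR adjusted p = 1.60e-08). The type I receptor genes BMPR1A and BMPR1B rose 1.48- and 1.47-fold (edgeR adjusted p = 3.50e-06 and 0.000124). ACVRL1, the type I receptor best known from endothelium and named here after its value was seen, fell 1.40-fold from 7.97 ± 0.493 to 5.68 ± 0.188 CPM (edgeR adjusted p = 6.38e-05). With the length and GC trends removed 3 were higher and 1 lower, and the median was 0.20, where 3563 of all 15660 genes were higher and 3938 lower. ACVR2B (log2 fold change 0.47), BMPR1A and BMPR1B (both 0.28) were still called and BMPR2, ACVR1 and ACVR2A were not.

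Of 10 genes of secreted antagonists tested 2 were higher and 3 lower, shares near those of all genes tested (28.0% and 28.2%). With the length and GC trends removed 1 was higher and 3 lower, but these were partly other genes. DAND5 (log2 fold change 0.47) and GREM1 (-0.45) were called only under that setting (edgeR adjusted p = 0.000279 and 0.000316). FST, which encodes the activin and BMP trap follistatin, fell 2.81-fold from 2.51 ± 0.421 to 0.901 ± 0.185 CPM (-1.49 on the log2 scale, SE 0.20, edgeR adjusted p = 7.42e-07). NBL1, the most abundant of the list per length, fell 1.21-fold (34.0 ± 2.17 to 28.1 ± 2.14 CPM), and TWSG1 and CRIM1 rose 1.34- and 1.29-fold. These last 3 calls were lost with the length and GC trends removed (edgeR adjusted p = 0.574, 0.191 and 0.0729), and that of TWSG1 also without the first control library (0.0584) or the first SMN1-labelled library (0.0896) and with DESeq2 (0.0643). NOG and CHRD, the genes of noggin and chordin, were at 0.0666 and 0.222 CPM in the control and were not tested.

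Among 18 genes of intracellular brakes on SMAD signalling 7 rose, 2 fell and 9 did not pass, a share called no larger than the 56.2% of all genes tested. SMURF2, a ubiquitin ligase that marks SMADs and receptors for breakdown, rose 1.41-fold from 14.0 ± 0.972 to 19.8 ± 1.13 CPM (edgeR adjusted p = 7.20e-07). PMEPA1, whose product binds and sequesters SMADs of the TGF-beta branch, rose 1.27-fold (20.9 ± 0.788 to 26.6 ± 1.28 CPM), and the corepressor gene SKIL 1.27-fold, from 3.62 ± 0.516 to 4.58 ± 0.244 CPM. The SKIL call was lost with the length and GC trends removed (log2 fold change 0.11, edgeR adjusted p = 0.466), with DESeq2 (adjusted p = 0.0789), and without the first control library (edgeR adjusted p = 0.138) or the first SMN1-labelled library (0.0599). SMURF2 was still called with the trends removed, at 0.22 in place of 0.50 on the log2 scale (edgeR adjusted p = 0.00492). STUB1, the ubiquitin ligase CHIP and the most abundant of the list per length, fell 1.18-fold from 262 ± 2.79 to 222 ± 12.3 CPM, and its log2 fold change turned from -0.24 to 0.07 with the length and GC trends removed (edgeR adjusted p = 0.0772).

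Other genes known as BMP targets in various tissues were mostly lower, 10 of 14 tested falling and 2 rising, against 28.2% lower over all genes tested, with a median log2 fold change of -0.23. SNAI2 and SNAI1, repressors of epithelial genes, fell 2.04- and 1.96-fold, SNAI2 from 4.09 ± 0.514 to 2.01 ± 0.232 CPM (edgeR adjusted p = 1.22e-06) and SNAI1 from 5.002 ± 0.639 to 2.53 ± 0.266 CPM (edgeR adjusted p = 8.38e-07). SNAI2 is also in the list of mesenchymal-type markers whose sum was lower. GATA2, GATA3 and HAND2 are among the adrenergic markers counted as lower above, so the counts of these lists share genes. The log2 fold changes of GATA2 and GATA3 were -0.18 and -0.12, and neither was called with the length and GC trends removed (edgeR adjusted p = 0.453 and 0.741). TBX3, a T-box repressor, was at 95.6, 92.5 and 96.1 CPM in the control and at 52.7, 53.8 and 52.4 CPM in the SMN1-labelled group. It fell 1.79-fold (edgeR adjusted p = 1.45e-14). HAND2, a core factor of the sympathetic lineage and by far the most abundant of this list, stood at 2074 ± 35.4 and 1948 ± 112 CPM. Its log2 fold change of -0.09 passed (edgeR adjusted p = 0.0394), but libraries of the groups overlapped, and with the length and GC trends removed the value was 0.10 (edgeR adjusted p = 0.0211). Leaving out any control library (edgeR adjusted p = 0.0669, 0.0676 and 0.0900), the second or the third SMN1-labelled library (0.141 and 0.259) also ended the call. Under the removal of the trends 7 of the 14 were lower and 3 higher, where 3938 of all 15660 genes were lower and 3563 higher.

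**Figure D4:**
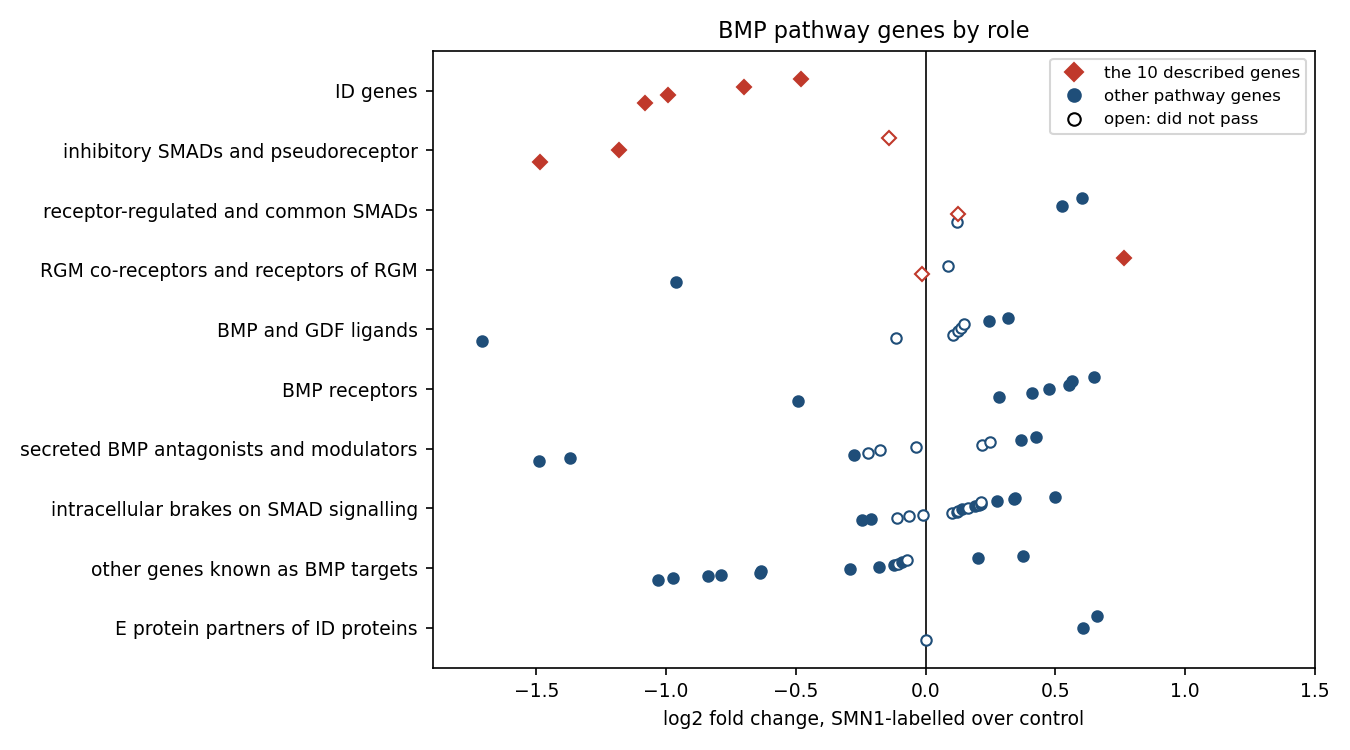
Log2 fold change, SMN1-labelled over control, of each tested gene of the BMP pathway and of the E protein genes, grouped by role. Diamonds are the 10 genes described, circles the other genes, and open symbols did not pass at an adjusted p of 0.05. All 4 ID genes lie left of 0, and 6 of 7 receptor genes and SMAD1 and SMAD5 lie right of it.

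The genes whose levels over the 6 libraries were most like those of ID1, the ID gene with the highest FPKM, were CYBA, WDR54, NQO1, FMC1 and AP000251.3. They had the smallest Euclidean distance between deviations of log2 CPM from each gene's mean, from 0.133 for CYBA to 0.167 for AP000251.3, among genes at 5 CPM or more. Genes whose symbol was empty or an Ensembl identifier were left out of this ranking. CYBA, which encodes a subunit of the phagocyte NADPH oxidase, went from 48.5 ± 2.02 to 23.3 ± 0.854 CPM. NQO1, a quinone reductase, went from 14.3 ± 0.524 to 6.34 ± 0.452 CPM. Being near by this measure is a description over 6 libraries in 2 groups and was not tested.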

How the data were processed

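RNA from the 6 SH-SY5Y libraries was made into stranded mRNA libraries and sequenced as paired 150 nt reads, per the labels' protocols. GRCh38, HISAT2 and DESeq2 are named without versions in the submitters' processing notes. Not given in the sources used here are the counting tool, its strand setting and its handling of multi-mapping reads. The deposited counts are whole-number reads per gene without normalization, and the authors' FPKM values are scaled by length and depth and rounded. Columns were matched to samples by name.

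Counts were tested over the whole table with edgeR 4.0.16 in R 4.3.3 (TMM, filterByExpr, quasi-likelihood, group as the only term, two-sided, Benjamini-Hochberg adjustment over 15829 genes, calls at 0.05). The steps were tested on simulated counts in which 15629 of 15829 genes were unchanged and no length or GC trend was built in. There 80.6% of 1.5-fold changes were recovered, with 12 false calls. Far more genes were called in the data, so these values need not hold for them. Standard errors were derived from each gene's log2 fold change and F statistic. The fits by DESeq2 1.42.0, by limma 3.58.1 on voom values or on log2 FPKM with a pseudocount of 0.1 or 1, by other factors and filters, with the replicate number as a term, without each library, and with splines of length and GC content (GENCODE v29, 15660 of the genes tested) removed within each library were alternatives. Promoter windows came from RefSeq.

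The genes and lists were chosen with earlier results of these data known. From each list the text names up to 3 called genes with the largest change at 1 CPM or more and the most abundant per length. Other names were chosen after their values were seen. Motif letters were chosen from background knowledge, and TATAAA after the sequences were read. No library repeats another: the chi-square of counts, divided by its degrees of freedom, was 2.505 to 4.357 for pairs within a group.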

Additional observations from a re-analysis of the deposited data

How the results depend on the processing

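Over 17 alternatives ID1, ID2, BAMBI and RGMB kept their direction and their call, as did ID4 and SMAD6 over the 15 that gave them a value (FPKM filters removed them, and RGMA, from the other 2). SMAD7 and RGMA passed under none. ID3 was no longer past the threshold with length and GC trends removed (-0.20). SMAD9 passed with no filter (0.15), on log2(FPKM + 0.1) (0.21) and on log2(FPKM + 1) with and without a filter (0.17 in both), and ranged from 0.09 to 0.16 without 1 library. These made 2 genes of the set higher in place of 1 with no filter and in the 3 FPKM fits, and 1 to 2 without 1 library. The FPKM fits called 2912, 2913 and 2883 of all genes lower (log2(FPKM + 0.1), log2(FPKM + 1), and the latter with no filter) against 4466 on counts, and the last called 10 other pathway genes lower against 18. Sums of FPKM were 308600 to 313800 in the control and 279600 to 280500 in the SMN1-labelled libraries. With length and GC trends removed STUB1 (0.07) and HAND2 (0.10) changed sign. Replicate numbers did not pair the samples (correlations of same-numbered deviations 0.0053, 0.013 and 0.0030): the replicate block left 6 of the set lower and 1 higher, and called 4326 of all genes higher and 4382 lower. The third SMN1-labelled library did not correlate best with its own number. ID4 and SMAD6 rest on 37 to 146 reads a library, and 3 reads, the limit that a count of 0 allows, are 0.0745 to 0.0988 CPM (counting error only).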

Other observations

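Among other genes known as BMP targets, ATOH8, a bHLH factor gene induced by BMP in endothelium, fell from 0.839 ± 0.0888 CPM in the control to 0.489 ± 0.171 CPM in the SMN1-labelled libraries (n = 3 each; -0.79 on the log2 scale, SE 0.28, adjusted p from edgeR 0.0214). MSX2, a homeobox target of BMP signalling, fell 1.55-fold from 3.51 ± 0.321 to 2.26 ± 0.343 CPM (edgeR adjusted p = 0.000523), while DLX5, another homeobox gene, stood at 2.45 ± 0.307 and 2.33 ± 0.0718 CPM and HEY1 at 11.1 ± 1.17 and 10.3 ± 0.908 CPM, neither passing (edgeR adjusted p = 0.703 and 0.309). These genes were named after their values were seen.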
